A study of Mus musculus with 17 samples.

Results

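The nuclear-coded subunits of the mitochondrial respiratory chain and ATP synthase were examined in mouse vein grafts within hours of grafting. Members were the genes whose symbols begin with Ndufa, Ndufb, Ndufc, Ndufs or Ndufv, Sdha to Sdhd, Uqcr, Cox4i, Cox5, Cox6, Cox7, Cox8 or Atp5, leaving out the assembly factors Ndufaf and the isoforms Ndufa4l2, Cox6a2, Cox7a1 and Cox8b. The names gave 75 genes among the 13212 entries (11992 symbols) of the count tables, with 33 in complex I, 4 in complex II, 8 in complex III, 13 in complex IV and 17 in complex V. Ndufa4 was counted with complex I by its name although its protein is known as a subunit of complex IV, and Atp5s and Atp5sl were counted with complex V by name alone. Ndufs1, Ndufs5 and Ndufs8 were not analysed here.

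Samples were vein grafts of male C57BL/6J mice aged 10 to 12 weeks, in which the inferior vena cava of a donor had been placed over cuffs into the carotid artery of a recipient, and vena cava that had not been grafted. Grafts had been perfused for 6 h (n = 5 libraries) or 1 h (n = 4) before removal, and 4 vena cava libraries served as control. Anastomosis zones had been cut away from the grafts, and RNA of whole vessels was amplified with a low-input kit and sequenced as 50 bp single reads. Grafts at 24 h were not analysed here. A graft holds the cells of the vein wall with its surrounding fat and the blood cells that have entered, so in these bulk libraries fewer cells of a type and less RNA per cell cannot be told apart.

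Complexes I and II pass electrons from NADH and succinate to ubiquinone, complex III passes them on to cytochrome c, and complex IV hands them to oxygen. Complexes I, III and IV pump protons across the inner mitochondrial membrane, and complex V, the ATP synthase, makes ATP as the protons flow back. All but complex II combine subunits coded in the nucleus with subunits coded in mitochondrial DNA, and transcripts of the nuclear genes are abundant in heart muscle and brown fat.

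Library depth was 10171059 to 11816124 counts at 6 h, 7897624 to 8359934 at 1 h and 8569614 to 11029712 in control, and TMM scaling factors were 0.769 to 0.953, 0.929 to 1.14 and 1.09 to 1.20. Summed CPM (counts scaled to library size by TMM) of cardiac muscle markers were 423 to 24530 in the 6 h grafts, 1466 to 19060 in the 1 h grafts and 2647 to 16220 in control vena cava. Brown fat markers were summed over 7 of 8 genes, Ucp1 not being analysed here. Their sums were 163 to 1222 at 6 h, 243 to 1124 at 1 h and 543 to 871 CPM in control. White fat markers (7 of 10) summed to 30000 to 52400, 29080 to 71370 and 31280 to 47570 CPM. Neutrophil markers summed to 2933 to 44850, 1027 to 9348 and 40.8 to 89.1 CPM, and endothelial markers to 974 to 1227, 728 to 1594 and 478 to 610 CPM. Platelet markers summed to 1322 to 9603, 783 to 2602 and 204 to 339 CPM, and fibroblast markers to 2007 to 2537, 4199 to 5699 and 2595 to 4029 CPM, without overlap between the 6 h grafts and control in either. The part of these markers in the values of the respiratory chain genes was not tested. By a code in the sample titles the 6 h and control libraries formed one batch and the 1 h libraries another. The labels do not say what the code stands for. In comparisons with 1 h this batch cannot be told apart from the time. The labels do not say whether libraries of a group came from independent grafting sessions, so p-values measure only the spread between these libraries.

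No respiratory chain gene passed the test in any comparison, while the genes of complexes I, II and V lay slightly to the lower side in the 6 h grafts. Of the 75 members 73 had enough counts to be tested, and none of them reached an adjusted p under 0.05 (edgeR) at 6 h against control, at 1 h against control or at 6 h against 1 h. Of all 11123 genes tested, 7.17% passed at 6 h (5.58% higher and 1.59% lower), 1.13% at 1 h and 3.65% between 6 h and 1 h. At an unadjusted p under 0.05, 8 of 73 members were lower at 6 h (11%, against 7.89% of all genes), namely Ndufs7, Ndufa10, Ndufb10, Sdha, Sdhb, Sdhc, Atp5a1 and Cox4i2. Ndufb5, Sdhc and Uqcrc2 were lower by the same measure at 1 h, 3 members where the share of all genes was 2.45%, and Ndufs7 and Cox4i2 between 6 h and 1 h, 2 members where it was 6.53%. None was higher at an unadjusted p under 0.05 in any of the 3 comparisons, against 12.2% of all genes at 6 h, 5.53% at 1 h and 9.11% between 6 h and 1 h. DESeq2, which gave an adjusted p for 71 members, passed 1 member at 6 h against control, Cox4i2 (5.26% of all genes lower and 9.5% higher), 2 at 6 h against 1 h, Cox4i2 and Ndufs7 (3.51% lower), and 0 at 1 h (0.414% lower).

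**Figure D1:**
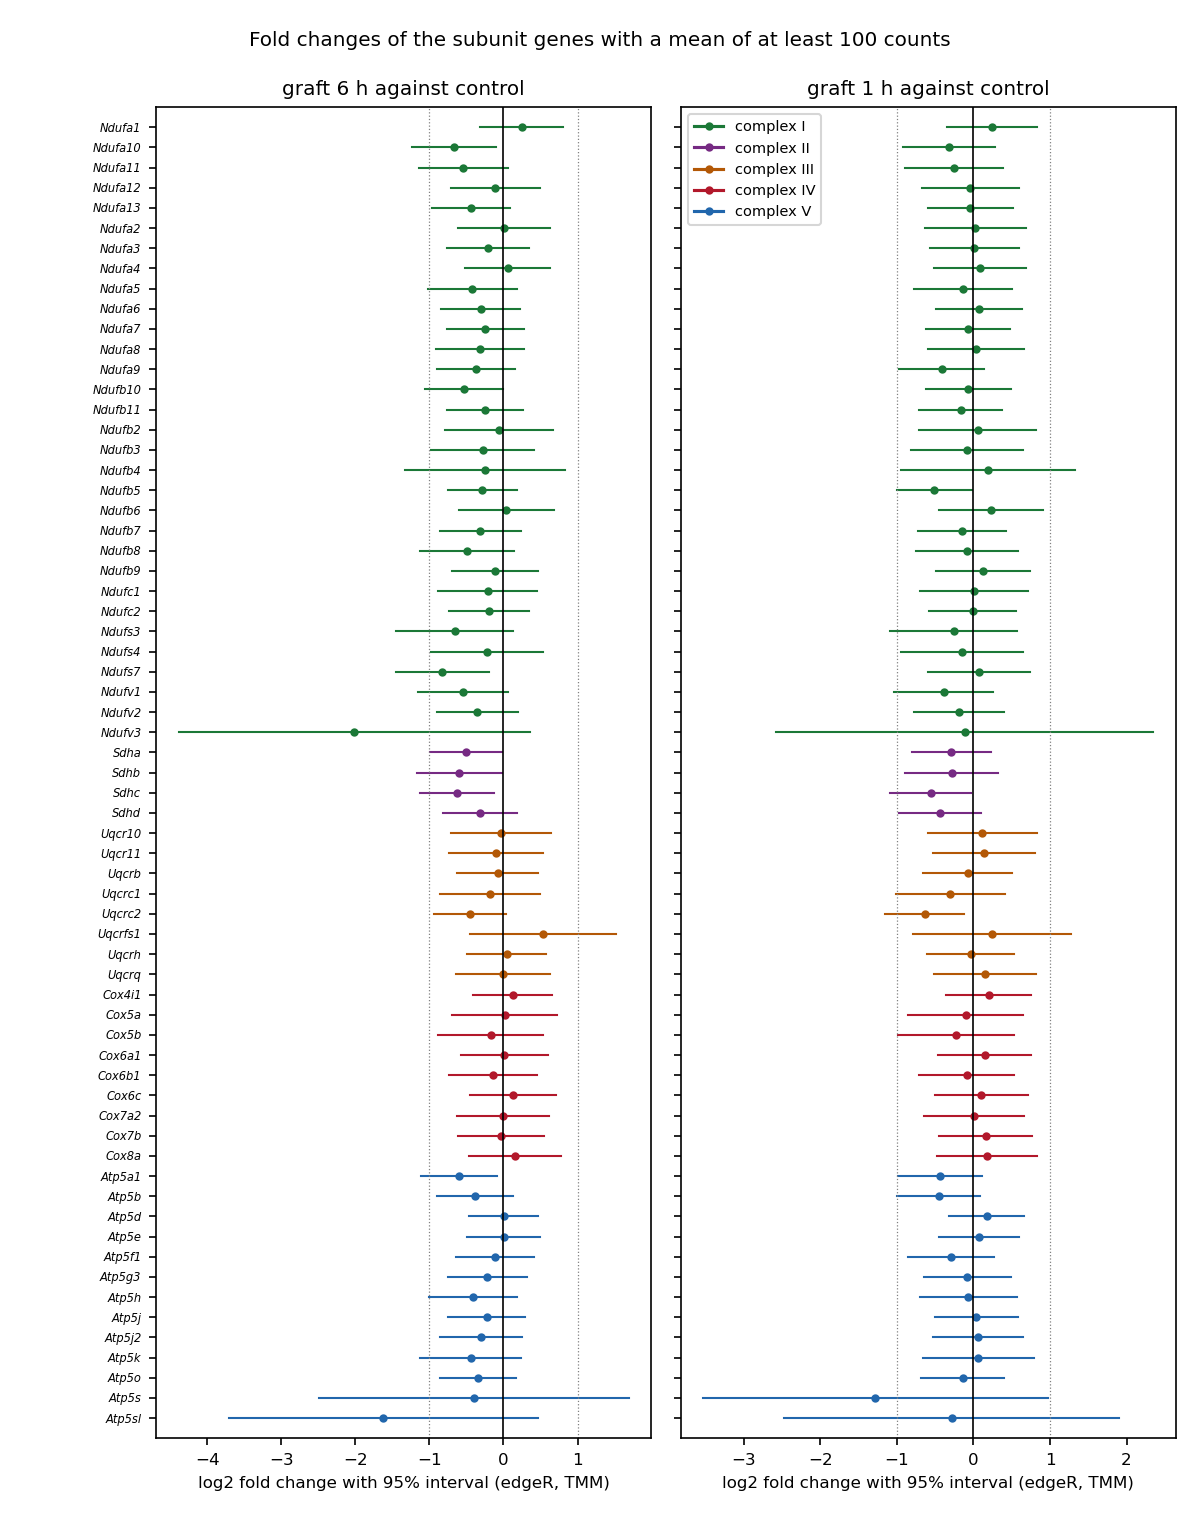
Log2 fold change with its 95% interval (x axis) of 65 of the 66 respiratory chain genes with a mean of at least 100 counts, grouped by complex (y axis), for 6 h grafts against control and 1 h grafts against control. The 4 complex II genes lie left of 0 in both comparisons, and the complex IV genes shown, which leave out the rarer Cox4i2, lie around 0.

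The log2 fold change was negative for 56 of 73 members at 6 h (76.7%, against 51.6% of all genes) and for 41 at 1 h (56.2%, against 51.8%). Median log2 fold changes over the members were -0.23 at 6 h and -0.07 at 1 h, beside -0.05 and -0.04 over all genes. The 95% interval lay within a 2-fold change either way for 48 members at 6 h (6.45% of all genes) and for 55 at 1 h (9.42%). Shares of all genes within this limit are not matched for count depth. A mean of at least 100 counts was reached by 66 of the 75 members and by 7403 genes in all, where 11123 were tested. At 6 h against 1 h the median was -0.15 (0.00 over all genes), with 56 of 73 negative (49.9% of all genes) and 57 intervals within a 2-fold change (7.28%). Single libraries carried much of this. Without graft 6 h replicate 1 the median at 6 h was -0.09, without control replicate 1 it was -0.14, and without control replicate 4 it was -0.35. The median at 6 h against 1 h was 0.08 without graft 1 h replicate 2, -0.01 without graft 6 h replicate 1 and -0.27 without graft 1 h replicate 3. The median at 1 h was 0.10 without graft 1 h replicate 3 and -0.29 without graft 1 h replicate 2.

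The number of members called lower at 6 h depended on the scaling. With counts scaled to library totals in place of TMM factors, 17 of 73 members (23.3%) passed as lower and 0 as higher at 6 h against control, with 5.43% of all genes passing as lower. They were 10 genes of complex I, all 4 of complex II, 1 of complex III and 2 of complex V. Under that scaling the median over all genes was itself -0.46 and that of the members -0.66, a difference of -0.20. Ndufs7 was the 1 member that passed at 6 h against 1 h (2.15% of all genes lower). The respiratory chain transcripts made up 2.05% ± 0.44 of counts at 6 h (SD, n = 5), 2.74% ± 0.58 at 1 h (n = 4) and 3.20% ± 0.45 in control (n = 4).

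**Figure D2:**
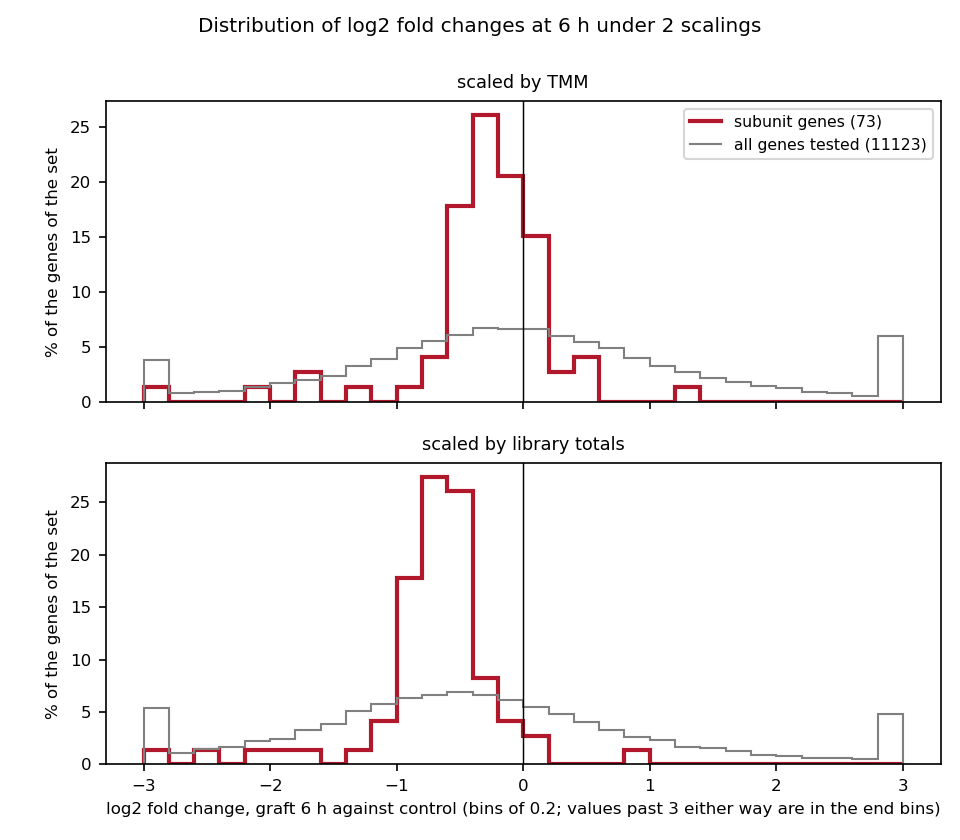
Distribution of log2 fold changes at 6 h against control (x axis) as the percent of genes in each bin (y axis), for respiratory chain genes and for all genes tested, with TMM factors and with library totals; values past 3 stand in the end bins. Both distributions lie further left with library totals, where the medians are -0.66 for the respiratory chain genes and -0.46 for all genes.

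Most members moved together from library to library. Over the 73 tested members, the median log2 CPM relative to the control mean was -0.95, -0.03, -0.19, -0.03 and -0.01 in the 6 h grafts, -0.17, 0.54, -0.57 and -0.11 in the 1 h grafts, and 0.20, 0.10, 0.13 and -0.40 in control. Over all genes tested the same median was 0.22, 0.11, -0.004, 0.03 and -0.13 in the 6 h grafts. It was 0.15, -0.16, 0.07 and 0.03 in the 1 h grafts, and 0.07, 0.02, 0.01 and 0.11 in control. Among the 66 members with a mean of at least 100 counts, graft 6 h replicate 1 and control replicate 4 were each the lowest library of their group for 60 genes. Of the 1 h grafts, replicate 2 was the highest for 54 and replicate 3 the lowest for 54. Correlated across the 13 libraries after centring each group, pairs of members had a median Pearson r of 0.74, from 0.58 among pairs of complex II to 0.86 among pairs of complex IV. The lower quartile of r was 0.59 over all pairs, but 0.07 among pairs of complex V and 0.18 among pairs of complex II. These pairs share libraries, depth and scaling, and r is given as a description. The coefficient of variation between libraries of a group had a median of 28.1% at 6 h, 31.9% at 1 h and 20.7% in control for these members, against 50.7%, 51.2% and 45.2% for all genes of the same minimum count. Brown fat markers, which include Cox7a1 and Cox8b, summed to 163, 459, 168, 657 and 1222 CPM in the 6 h grafts, 453, 1124, 243 and 644 CPM in the 1 h grafts, and 871, 655, 619 and 543 CPM in control. Within each graft group these sums stood in the same order as the medians of the members. In control replicate 1 was the highest and replicate 4 the lowest by both. Cox7a1 and Cox8b are themselves isoforms of complex IV, so the match is partly built in. Cidea, another of these markers, had 88.1, 68.7, 0.373, 348 and 721 CPM in the 6 h grafts, lowest in replicate 3. In the 1 h grafts Cidea had 194, 825.5, 99.2 and 283 CPM, in the order of the medians. In control it had 464, 194, 274 and 324 CPM, lowest in replicate 2. Of the other brown fat markers, Dio2 had 18.0, 5.22, 15.4 and 5.28 CPM in the 1 h grafts. Otop1 had 0.933, 13.5, 21.8 and 0.106 CPM there, and Cpt1b 4.08, 0.804, 0 and 4.965 CPM. None of these stood in the order of the medians. In graft 6 h replicate 1, the lowest library for most members, cardiac muscle markers summed to 1814 and white fat markers to 30000 CPM, each low beside most 6 h grafts. Cardiac muscle markers were lower still in graft 6 h replicate 5 (423 CPM), where the median of the members was -0.01, and summed to 1466 CPM in graft 1 h replicate 2, where it was 0.54. The part of brown fat, white fat and cardiac muscle in these values was not tested.

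**Figure D3:**
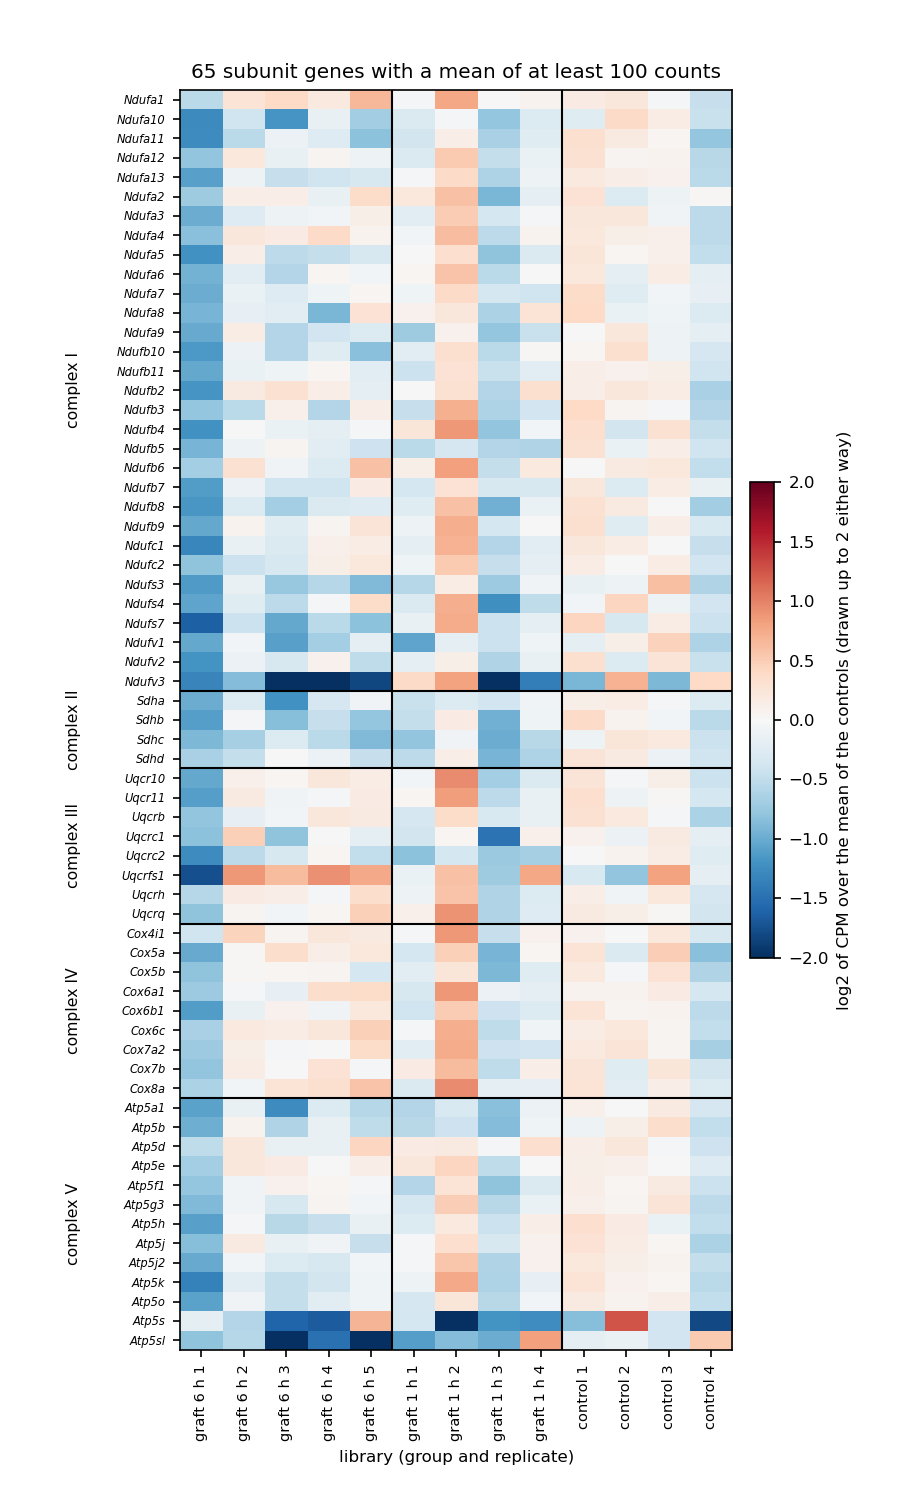
Heat map of the log2 of CPM over the control mean (colour) for 65 of the 66 respiratory chain genes with a mean of at least 100 counts (rows, by complex) in each of the 13 libraries (columns, 6 h grafts, 1 h grafts and control), with colours drawn up to 2 either way. Graft 6 h replicate 1 and graft 1 h replicate 3 are low across most rows, and graft 1 h replicate 2 is high.

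Promoters of the members were read from RefSeq for GRCm38.p6, from 250 bases before to 50 bases after each gene's start. Of the 75 members 64 matched, with 70 windows. The letters GCGCA and GCGC with any base between them, the motif of NRF1, a transcription factor known for activating nuclear genes of respiration, stood on either strand in 16 windows (22.9%, against 4.60% of all 32851 windows). The letters CCGGAAGT, bound by ETS family factors, stood in 5 (7.14%, against 3.89%), and ACGTG, the core of the hypoxia response element, in 19 (27.1%, against 19.6%). Hits of different motifs overlapped in 0 of 70 windows. Among those not matched were Atp5a1, Cox4i1, Cox4i2, Cox6c, Ndufa2, Ndufb9, Sdhc, Uqcrb, Uqcrc2 and Uqcrq. Shown are the windows of Ndufs7, the complex I gene with the smallest p, and of 1 gene each of complexes II, III and IV that holds more than 1 NRF1 match, with the matched letters of any of the motifs in capitals. Each is printed 5′ to 3′ in the direction of its gene.
Ndufs7 (chr10:80249199-80249498, plus strand): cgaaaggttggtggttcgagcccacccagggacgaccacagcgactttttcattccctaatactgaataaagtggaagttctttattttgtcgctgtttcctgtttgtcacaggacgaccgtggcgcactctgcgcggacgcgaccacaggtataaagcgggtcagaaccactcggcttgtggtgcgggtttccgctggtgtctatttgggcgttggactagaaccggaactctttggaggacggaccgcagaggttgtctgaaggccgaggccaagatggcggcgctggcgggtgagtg
Sdha (chr13:74350191-74350490, minus strand): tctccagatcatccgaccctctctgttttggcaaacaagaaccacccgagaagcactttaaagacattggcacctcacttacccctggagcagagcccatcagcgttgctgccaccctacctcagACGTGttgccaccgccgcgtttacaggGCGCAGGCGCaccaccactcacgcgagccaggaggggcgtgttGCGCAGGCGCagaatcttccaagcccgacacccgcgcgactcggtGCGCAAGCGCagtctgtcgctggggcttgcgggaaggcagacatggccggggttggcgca
Uqcrc1 (chr9:108936398-108936697, plus strand): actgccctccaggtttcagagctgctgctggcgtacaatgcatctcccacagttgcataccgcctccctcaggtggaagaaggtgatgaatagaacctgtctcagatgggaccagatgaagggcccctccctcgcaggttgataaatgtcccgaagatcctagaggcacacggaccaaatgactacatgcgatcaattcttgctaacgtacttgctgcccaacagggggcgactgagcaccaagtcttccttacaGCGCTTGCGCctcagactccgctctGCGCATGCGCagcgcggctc
Cox6a1 (chr5:115348909-115349208, minus strand): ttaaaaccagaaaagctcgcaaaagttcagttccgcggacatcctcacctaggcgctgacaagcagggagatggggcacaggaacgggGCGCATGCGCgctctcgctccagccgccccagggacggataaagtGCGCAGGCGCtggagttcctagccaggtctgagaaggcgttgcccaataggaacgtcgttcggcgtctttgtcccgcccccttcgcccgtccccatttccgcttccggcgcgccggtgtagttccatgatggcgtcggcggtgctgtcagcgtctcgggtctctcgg
Sdha held the NRF1 letters 98, 55 and 10 bases before its start and the hypoxia core 125 bases before it. Uqcrc1 held the NRF1 letters 5 and 30 bases after its start, and Cox6a1 162 and 117 bases before its start. None of the 3 motifs stood in the window of Ndufs7. A match describes the letters and not binding. The shares of all windows are not matched for base composition, and the part of these motifs in the values of the members was not tested.

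Complex I takes electrons from NADH through a chain of iron-sulfur clusters held by its core subunits. All 5 core subunits measured had negative log2 fold changes at 6 h against control, with a median of -0.54, and 23 of the 28 accessory subunits did, with a median of -0.25. Ndufs7 (mm9 chr10:79711866-79719539, plus strand), which holds the cluster next to the ubiquinone site, had 125, 287, 191, 267 and 219.5 CPM in 6 h grafts, 351, 650, 287 and 341 CPM in 1 h grafts, and 519, 311, 431 and 288 CPM in control vena cava. All 6 h grafts lay below all control and all 1 h libraries, but the highest 6 h graft was nearly level with the lowest library of each. The 1 h grafts overlapped with control. Its log2 fold change at 6 h was -0.83 ± 0.30 (SE), or 0.563-fold (95% interval 0.364 to 0.869), with an adjusted p of 0.11 (edgeR). At 6 h against 1 h it was -0.90 ± 0.30 with an adjusted p of 0.12 (edgeR), and 0.0434 with DESeq2. With each library left out in turn, the value lay between -0.95 and -0.66 at 6 h against control and between -1.04 and -0.58 at 6 h against 1 h, where it was -0.58 (adjusted p = 0.37, edgeR) without graft 1 h replicate 2. With library totals it was -1.23 at 6 h against control (adjusted p = 0.00932, edgeR) and -1.18 at 6 h against 1 h (0.0235).

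Ndufs7 and Atp5sl, a gene named for ATP synthase, were the 2 tested members whose 6 h values all lay below the control values (5.32% of all genes), Ndufs7 and Cox4i2 the 2 below the 1 h values (3.13%), and Uqcrc2 the 1 whose 1 h values all lay below control (2.09%). Ndufa10, an accessory subunit of complex I, had 156, 288, 167, 340 and 233 CPM in 6 h grafts, 308, 366, 221 and 313 CPM in 1 h grafts, and 320, 495, 417 and 279 CPM in control. The 6 h values reached into the lower control values, and the log2 fold change at 6 h was -0.67 ± 0.27 (SE, adjusted p = 0.16, edgeR). Ndufb10, a small membrane subunit, had 205, 418, 304, 383 and 254 CPM at 6 h, 392, 565, 313 and 460 CPM at 1 h, and 464, 568, 423 and 358 CPM in control, a log2 fold change at 6 h of -0.54 ± 0.25 (adjusted p = 0.24, edgeR). Only the highest 2 of its 6 h values overlapped with control.

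At 1 h the member of complex I with the smallest p was Ndufb5, another membrane subunit, with 274, 484, 544, 445 and 391 CPM in 6 h grafts, 360.5, 412, 348 and 344 CPM in 1 h grafts, and 643, 475, 571 and 396 CPM in control. At 1 h the highest graft stood above the lowest control, and the log2 fold change at 1 h was -0.51 ± 0.23 (SE, adjusted p = 0.58, edgeR). Ndufa9, which sits beside the ubiquinone tunnel, had log2 fold changes of -0.37 ± 0.25 at 6 h and -0.42 ± 0.26 at 1 h. Ndufa1, a membrane subunit, was among the 5 genes of complex I with a positive value at 6 h, 0.25 ± 0.26. Ndufa4 averaged 731 ± 200 CPM at 6 h (SD, n = 5), 747 ± 246 at 1 h (n = 4) and 703 ± 145 in control (n = 4), a log2 fold change at 6 h of 0.06 with a 95% interval of -0.51 to 0.63. Ndufv3, a subunit of the NADH-oxidising arm, ranged from 0 to 29.8 CPM at 6 h, 13.8 to 95.5 CPM at 1 h and 28.9 to 88.1 CPM in control.

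Complex II is succinate dehydrogenase, an enzyme of the TCA cycle as well as the respiratory chain, and the one complex coded wholly in the nucleus. Its 4 genes had negative log2 fold changes in both comparisons with control, with medians of -0.55 at 6 h and -0.36 at 1 h, and none passed the test with TMM factors. Sdhc (mm9 chr1:173057296-173080734, minus strand), which anchors the enzyme in the membrane with Sdhd, had 199.8, 235, 310.4, 259 and 203 CPM in 6 h grafts, 217, 355, 188 and 254 CPM in 1 h grafts, and 348, 441, 429 and 277 CPM in control. In both graft groups most libraries lay below control, and the highest graft of each lay above the lowest control. The log2 fold change of Sdhc was -0.63 ± 0.24 at 6 h (SE, adjusted p = 0.13, edgeR) and -0.56 ± 0.25 at 1 h (adjusted p = 0.56).

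Sdha (mm9 chr13:74459702-74487728, minus strand), the flavoprotein that oxidises succinate, had 456, 755, 394, 719 and 866 CPM at 6 h, 668, 752, 696 and 861 CPM at 1 h, and 982, 1003, 895 and 754 CPM in control. All but the lowest control library exceeded every graft. Its log2 fold change at 6 h was -0.51 ± 0.23 (adjusted p = 0.22, edgeR). Sdhb (mm9 chr4:140517118-140535108, plus strand), the iron-sulfur subunit, had 421, 880.0, 503, 660.2 and 531 CPM at 6 h, 648, 1011, 467 and 852 CPM at 1 h, and 1181, 946, 876 and 620.1 CPM in control. The groups overlapped, with a log2 fold change at 6 h of -0.60 ± 0.27 (adjusted p = 0.22). Sdhd, the other anchor, averaged 496 ± 95.1 CPM at 6 h, 458 ± 152 at 1 h and 619 ± 124 in control (SD, n = 5, 4 and 4). The log2 fold change of Sdhd was -0.32 ± 0.24 at 6 h and -0.43 ± 0.25 at 1 h (SE). With library totals all 4 were called lower at 6 h, with log2 fold changes of -0.93 for Sdha, -0.99 for Sdhb, -1.05 for Sdhc and -0.74 for Sdhd and adjusted p-values of 0.0179, 0.0266, 0.00646 and 0.0375 (edgeR), and none was called at 1 h. Summed over the 4 genes, complex II had 1974 ± 337 CPM at 6 h, 2200.0 ± 488 at 1 h and 2807 ± 500.1 in control.

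**Figure D4:**
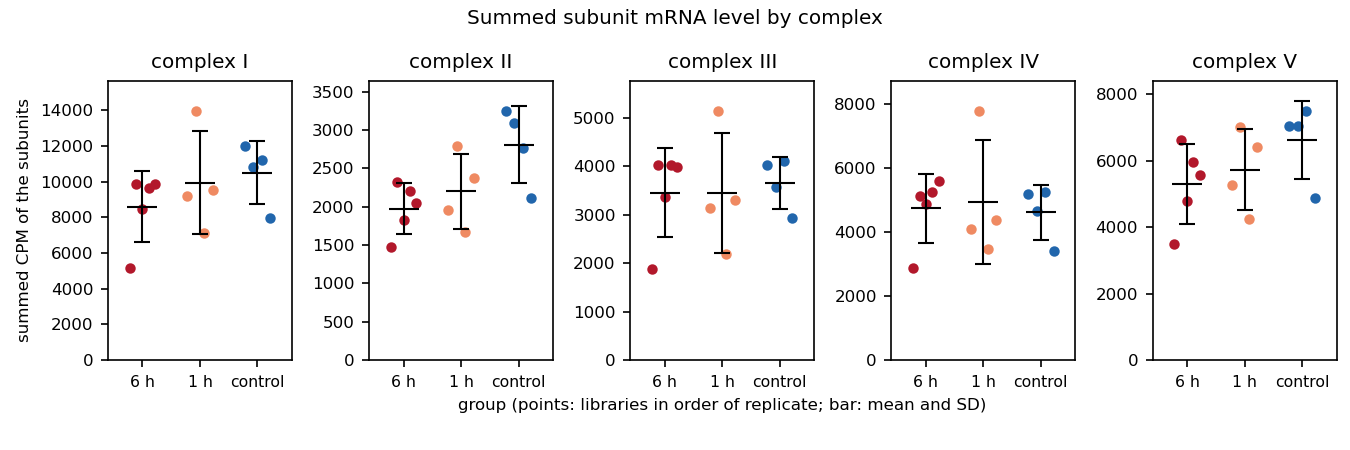
Summed CPM of each complex (y axis, from 0) in each library (points) with group mean and SD, for 6 h grafts, 1 h grafts and control (x axis). Complex II averages 1974 CPM at 6 h and 2807 CPM in control, and complex IV 4740 CPM at 6 h and 4612 CPM in control; the groups overlap in every complex.

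Complex III carries electrons from ubiquinol to cytochrome c. Its 8 members, those named Uqcr and not all of its nuclear genes, split into core proteins, the iron-sulfur subunit and small subunits. At 6 h the 5 small subunits had a median log2 fold change of -0.03, with 95% intervals inside a 2-fold change for all 5. Uqcrc2 (mm9 chr7:127778690-127802992, plus strand), a core protein, had 285, 473, 548, 701 and 485 CPM in 6 h grafts, 385, 533, 406 and 429 CPM in 1 h grafts, and 684, 715, 756 and 575 CPM in control. Every 1 h graft lay below every control library, and 1 graft at 6 h reached the control range. The log2 fold change of Uqcrc2 was -0.64 ± 0.24 at 1 h (SE, adjusted p = 0.39, edgeR) and -0.45 ± 0.23 at 6 h (adjusted p = 0.29). Of the members in control it had the narrowest spread, with a coefficient of variation of 11.4%.

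Uqcrc1, the other core protein, averaged 586 ± 227 CPM at 6 h, 539 ± 218 at 1 h and 665 ± 78.6 in control. Uqcrfs1, the Rieske iron-sulfur protein, had 69.7, 429, 365, 441 and 399 CPM at 6 h, 214, 352, 144 and 403 CPM at 1 h, and 191, 136, 409 and 204 CPM in control. The first 6 h graft was the lowest library of all, the other 6 h grafts lay beside the highest control, and the log2 fold change at 6 h was 0.54 ± 0.46 (SE, adjusted p = 0.59, edgeR). Without graft 6 h replicate 1 it was 0.95, and no alternative brought its adjusted p under 0.05.

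Complex IV, cytochrome c oxidase, reduces oxygen. Its genes were centred on 0 at 6 h, with a median log2 fold change of 0.01 and 5 of 12 negative, and at 1 h the median was 0.12 with 4 of 12 negative. These signs depended on the scaling and on single libraries. With library totals the median at 6 h was -0.41 with 10 of 12 negative, beside -0.46 over all genes, and at 1 h it was -0.01. Upper-quartile scaling gave -0.11 at 6 h (-0.17 over all genes) and DESeq2 -0.04 (-0.10). Without graft 1 h replicate 2 and graft 6 h replicate 5, the median was -0.20 at 1 h with 10 of 12 negative and -0.03 at 6 h with 7 of 12. Cox4i1 (mm9 chr8:123192190-123198109, plus strand), the common form of a regulatory subunit, had 992, 1775, 1352, 1525 and 1482 CPM at 6 h, 1281, 2380.0, 954 and 1386 CPM at 1 h, and 1381, 1298, 1509 and 1044 CPM in control. The groups overlapped, with a log2 fold change at 6 h of 0.12 and a 95% interval of -0.41 to 0.65. The log2 fold changes at 6 h were 0.02 for Cox5a, -0.17 for Cox5b, 0.01 for Cox6a1, -0.14 for Cox6b1, 0.13 for Cox6c, -0.01 for Cox7a2, -0.03 for Cox7b and 0.15 for Cox8a, each with an SE of 0.27 to 0.34. Cox6a1, Cox6b1, Cox7a2 and Cox8a stood highest in graft 1 h replicate 2.

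Cox4i2 (mm9 chr2:152579909-152590773, plus strand), the form of the same subunit known from lung and for its response to low oxygen, had counts of 35, 0, 0, 16 and 0 in the 6 h grafts, 222, 234, 129 and 128 in the 1 h grafts, and 87, 337, 68 and 42 in control. The 6 h counts were all below the 1 h counts and below control except that scaled to CPM the first 6 h graft (3.49 CPM) lay just above the lowest control (3.19 CPM). The fitted log2 fold change was -3.57 ± 1.47 at 6 h against control (SE, adjusted p = 0.17, edgeR; 0.0318 with DESeq2) and -4.33 ± 1.51 at 6 h against 1 h (adjusted p = 0.15, edgeR; 0.0098 with DESeq2). With each library left out in turn the value lay between -4.83 (without graft 6 h replicate 1) and -2.54 (without control replicate 2, which held 337 counts) at 6 h against control, and between -5.59 and -4.01 at 6 h against 1 h, and no adjusted p was under 0.05. Of 5 tested smooth muscle markers 2, Acta2 and Tagln, were called lower at 6 h against 1 h (40%, against 1.02% of all genes, edgeR). At 6 h against control 0 of the 5 were called. The part of smooth muscle cells in the values of Cox4i2 and Ndufa4l2 was not tested.

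The ratio of Cox4i2 to Cox4i1 within a library does not depend on scaling, but where Cox4i2 was at 0 it is set by the count added. On the log2 scale, with 0.5 added to each count, it averaged -12.41 ± 3.22 at 6 h (SD, n = 5), -6.16 ± 0.43 at 1 h (n = 4) and -7.20 ± 1.29 in control (n = 4). The difference of 6 h and 1 h was -6.25, with every 6 h graft below every 1 h graft (2-sided exact permutation p = 0.0159, 0.0952 after adjustment over the 6 ratio tests). The difference of 6 h and control was -5.21 (exact permutation p = 0.0397, adjusted 0.119) and that of 1 h and control 1.05 (0.171, adjusted 0.24). With 2 added to each count the differences were -5.03 for 6 h and 1 h, -3.997 for 6 h and control and 1.03 for 1 h and control (adjusted exact permutation p = 0.0714, 0.0714 and 0.24). The smallest p possible was 0.00794 for 5 against 4 libraries. For Ndufa4l2, an isoform known for its induction in low oxygen, against Ndufa4, the differences were -2.32 at 6 h against control (exact permutation p = 0.286), -3.30 at 6 h against 1 h (0.0635, adjusted 0.127) and 0.97 at 1 h against control (0.20, adjusted 0.24). Ndufa4l2 had 11.4, 23.3, 34.3, 0.636 and 0.378 CPM at 6 h, 62.3, 72.2, 18.0 and 71.0 CPM at 1 h, and 68.7, 9.93, 20.5 and 23.5 CPM in control.

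**Figure D5:**
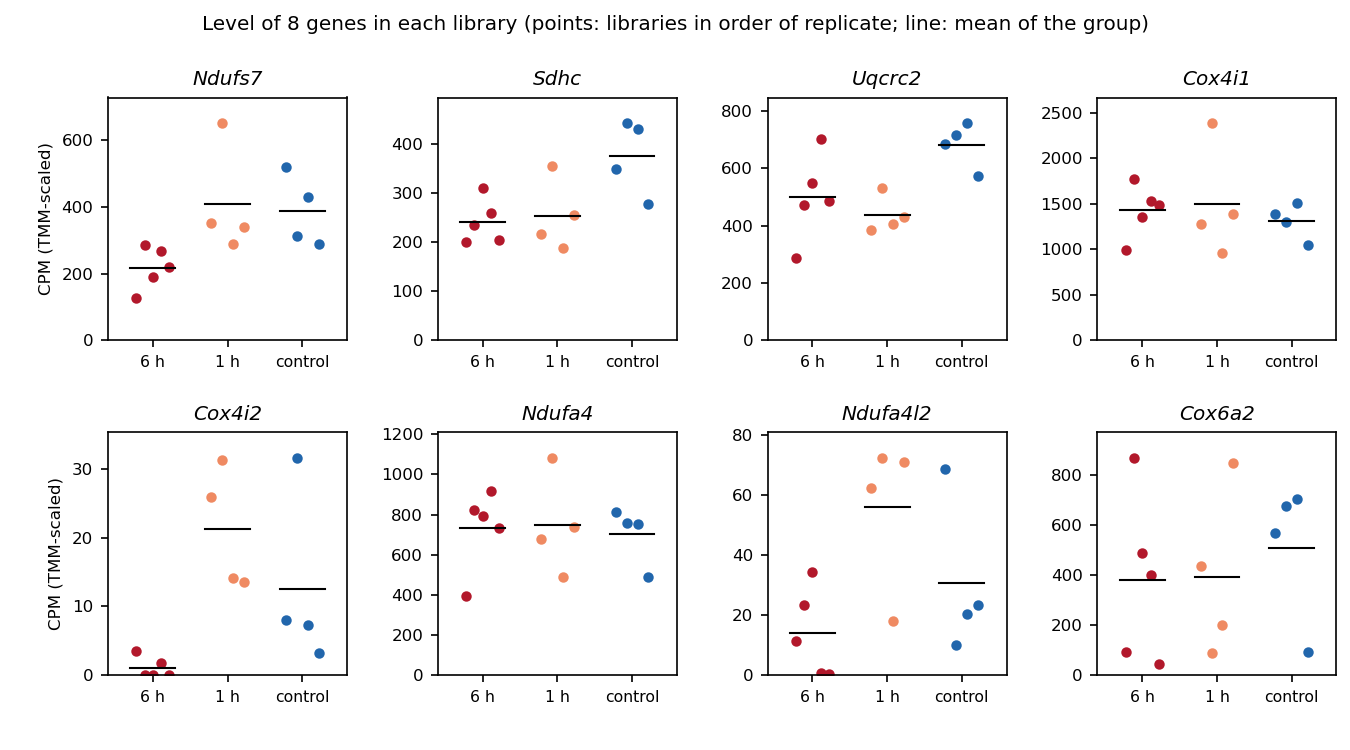
CPM in each library (points, y axis) with the group mean for Ndufs7, Sdhc, Uqcrc2, Cox4i1, Cox4i2, Ndufa4, Ndufa4l2 and Cox6a2 in 6 h grafts, 1 h grafts and control (x axis). The 6 h values of Ndufs7 lie below those of both other groups, the highest nearly level with the lowest of each. Cox4i2 is at 0 in 3 of 5 grafts at 6 h, and Cox4i1 and Ndufa4 overlap across groups.

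The isoforms of complex IV that are typical of heart and skeletal muscle, left out by the naming rule, overlapped between the groups. Cox6a2 had 91.3, 866, 488, 398 and 45.6 CPM at 6 h, 435, 88.3, 199.6 and 847 CPM at 1 h, and 566, 675, 702 and 90.6 CPM in control. Cox7a1 ranged from 11.7 to 164 CPM at 6 h, 27.9 to 177 at 1 h and 43.2 to 151 in control, and Cox8b from 25.7 to 252, 78.9 to 245 and 141 to 292 CPM. Their log2 fold changes at 6 h were -0.43 ± 0.78, -0.59 ± 0.65 and -0.57 ± 0.49 (SE), and none passed the test in any of the 3 comparisons. The ranges of the cardiac muscle markers, given above, overlapped between the groups too.

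Complex V joins an F1 head, which makes ATP, to a membrane-borne c ring through central and peripheral stalks. Of its 16 tested genes 13 had negative log2 fold changes at 6 h, with a median of -0.37, and 9 at 1 h, with a median of -0.07. Without graft 1 h replicate 2 and graft 6 h replicate 5, where 17 genes could be tested, the median at 1 h was -0.27 with 15 negative, and with library totals it was -0.21 (-0.14 over all genes) with 14 of 16 negative. Atp5a1, the alpha subunit of F1, had 646, 1225, 566, 1124 and 913 CPM at 6 h, 899.9, 1095, 755 and 1243 CPM at 1 h, and 1454, 1345, 1535 and 1076 CPM in control. Of the control libraries 3 lay above every graft. Its log2 fold change was -0.60 ± 0.24 at 6 h (SE, adjusted p = 0.17, edgeR) and -0.44 ± 0.26 at 1 h (adjusted p = 0.81).

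Atp5b (mm9 chr10:127520329-127527447, plus strand), the catalytic beta subunit, averaged 1204 ± 333 CPM at 6 h, 1153 ± 263 at 1 h and 1578 ± 376 in control, log2 fold changes of -0.39 ± 0.24 and -0.45 ± 0.26 (SE). The delta and epsilon subunits of F1 were level, with 0.01 for Atp5d and 0.01 for Atp5e at 6 h. The 4 genes of the peripheral stalk, Atp5f1, Atp5h, Atp5j and Atp5o, were all negative at 6 h, between -0.41 and -0.12. Of the 3 genes for the c ring, Atp5g3 had -0.22 ± 0.25, and Atp5g1 and Atp5g2 were rare, with 160 and 69 counts over all 13 libraries. Atp5sl had 23.4, 27.7, 0.249, 14.5 and 0.504 CPM at 6 h, 19.01, 22.5, 20.6 and 72.5 CPM at 1 h, and 36.2, 37.3, 31.5 and 58.9 CPM in control. Its 6 h values lay below control with a wide spread, and the log2 fold change was -1.62 ± 0.98 (adjusted p = 0.40, edgeR).

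Members with few counts set limits on what could be seen. Cox6b2, known from testis, and Atp5g2 were not tested, with 56 and 69 counts over all libraries. Atp5c1, the gamma subunit of F1, had 106 counts, Cox7a2l 89, Atp5l 330, Ndufab1 742 and Cox7c 753, so that SEs of their log2 fold changes were 0.92 to 1.97. These counts belong to single RefSeq transcript entries, and reads on other transcripts of the same genes were not analysed here. For Atp5g2, Atp5l and Cox7c RefSeq lists 1 mRNA each.

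Among genes that build the complexes, 36 assembly factors were tested at 6 h against control, with 1 higher (2.78%, against 5.58% of all genes) and 1 lower (2.78%, against 1.59%) and a median log2 fold change of -0.52, beside -0.05 over all genes. Sdhaf4, an assembly factor of complex II, had 26.7, 44.0, 53.6, 53.2 and 36.5 CPM in the 6 h grafts, 108, 98.97, 69.2 and 95.8 CPM in the 1 h grafts, and 149, 137, 101 and 76.0 CPM in control. All 6 h grafts lay below all libraries of both other groups. Sdhaf4 fell in 6 h grafts by a log2 fold change of -1.43 ± 0.31 (SE, adjusted p = 0.00903, edgeR), and the call held under all 17 alternatives. Ndufaf4, an assembly factor of complex I, was higher at 6 h with 131, 205, 189.5, 124 and 168 CPM, against 90.7, 54.5, 31.2 and 68.6 CPM in control (log2 fold change 1.42, adjusted p = 0.0294, edgeR). That call was lost without any of graft 6 h replicates 2, 3 and 5 or control replicates 2, 3 and 4 (adjusted p = 0.054 to 0.0928), with upper-quartile scaling (0.0525) and with library totals (0.0933). Of 74 mitochondrial ribosomal proteins 1 passed as higher at 6 h, Mrpl33 (adjusted p = 0.0478, edgeR), or 1.35% against 5.58% of all genes, and none as lower, with a median over the list of -0.25. The call of Mrpl33 was lost under 12 of 17 alternatives, when any of 8 of the 9 libraries of the 2 groups was left out (0.0509 to 0.127), without graft 1 h replicate 2 and graft 6 h replicate 5 (0.0895), with upper-quartile scaling (0.0934), with library totals (0.243) and without a filter (0.059).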

How the data were processed

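RNA of 13 libraries was analysed, from 5 vein grafts at 6 h, 4 at 1 h and 4 control vena cavae. Reads had been examined by the authors in FastQC 0.11.5, mapped onto mm9 by gsnap and assigned to UCSC transcripts by HTSeq 0.5.4p3 without regard to strand. The deposited values used here are raw counts, 1 row for each RefSeq transcript entry. All 13212 rows carry an adjusted p in the authors' comparison of 6 h and control, and entries without one were not analysed here. The tables also hold the authors' DESeq2 1.14.1 comparisons (fold changes and p-values), which were not used. A further 95 columns of per-sample values were not used, among them 5 count columns named 24 h where the labels list 4 samples.

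Counts were fitted in R 4.3.3 with edgeR 4.0.16. Genes were kept by filterByExpr (11123 of 13212 entries), scaled by TMM and tested with a robust quasi-likelihood fit of all 13 libraries by group, with adjustment after Benjamini and Hochberg at 0.05 over all genes tested. The common biological coefficient of variation came to 1.03. TMM factors entered CPM, log2 CPM carry a prior count of 2, and the fit also gave standard errors and 95% intervals. The fitting code was tested on simulated data. Where a symbol had several entries, the one with the highest mean count was used, and no member had more than 1. The values of 1 member are not reported here singly; it is included in all counts, medians and sums. Within-library ratios added 0.5 to each count and were tested by 2-sided exact permutation, 6 tests in all.

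Genes given with values were, for each complex, up to 3 with the smallest p at 6 h against control and up to 2 in each of the other comparisons, the isoform genes, members with few counts, those with the narrowest and widest spread in control, and up to 3 called genes of each related list; others were named after their values were seen. The members and lists were chosen with earlier results of these data known. Alternatives were DESeq2 1.42.0, upper-quartile scaling, library totals, all entries unfiltered, at least 50 counts in 4 libraries, the 2 compared groups only, entries summed per symbol, a count of 2 added in ratios, and each library left out in turn. Added after seeing the data were a fit without graft 1 h replicate 2 and graft 6 h replicate 5, and a reading of the naming rule that counts Sdhaf1 to Sdhaf4 as members (79 genes). Gene positions were taken from GENCODE models of mm9 and promoters from RefSeq for GRCm38.p6.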

Additional observations from a re-analysis of the deposited data

Results flagged for a closer look

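In 11 of 129 groups of 4 or 5 libraries 1 library lay far from the others of its group by Dixon's test at 95%, where chance alone flags about 1 in 20 groups (6.45 here). Graft 6 h replicate 1 was low for Uqcrfs1 (69.7 CPM, next 365), for Uqcr11, a small subunit of complex III (173 CPM, next 354), and for the summed CPM of complex IV (2873, next 4859). Graft 1 h replicate 2 was high for 4 genes of complex IV, Cox6a1 (1373 CPM, next 695), Cox6b1 (882 CPM, next 509.5), Cox7a2 (602 CPM, next 308) and Cox8a (751 CPM, next 347). Graft 1 h replicate 4 was high for Atp5sl (72.5 CPM, next 22.5). Control replicate 2 was high for Cox4i2 (31.6 CPM, next 7.98), control replicate 3 was high for the rare Cox7a2l (1.82 CPM, next 0.304), and control replicate 4 was low for the percent of counts in respiratory chain genes (2.54%, next 3.35%).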

How the results depend on the processing

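With DESeq2, 1604 genes passed at 6 h against control, 334 at 1 h against control and 918 at 6 h against 1 h, against 798, 126 and 406 with edgeR, and 1 and 2 respiratory chain members passed at 6 h against control and at 6 h against 1 h. Library totals passed 17 members at 6 h against control and 1 at 6 h against 1 h, with a median log2 fold change of the members at 6 h of -0.66. Counting Sdhaf1 to Sdhaf4 as members, 1 passed at 6 h, Sdhaf4. No other alternative passed a member, and no called value changed direction.

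With each library left out in turn, 98 to 123 genes passed at 1 h against control, 575 to 752 at 6 h against control and 228 to 325 at 6 h against 1 h, lowest without graft 1 h replicate 1, and 0 members passed in each case. Members' medians were -0.29 to 0.10, -0.35 to -0.09 and -0.27 to 0.08. The log2 ratio of Cox4i2 to Cox4i1 differed by 0.67 to 1.66, -6.28 to -4.51 and -7.32 to -5.55, and that of Ndufa4l2 to Ndufa4 by 0.51 to 1.40, -2.99 to -1.44 and -3.96 to -2.42. Without graft 1 h replicate 2 and graft 6 h replicate 5, the medians were -0.29 at 1 h, -0.29 at 6 h and 0.03 at 6 h against 1 h.

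No paired analysis was possible because the grafts carry no animal number in the count columns and the groups share fewer than 2 numbers in the labels. The counts cover single transcript entries and amplified RNA without molecular identifiers. With 4 or 5 libraries a group, the median SE of a member's log2 fold change was 0.28 at 6 h against control.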

Other observations

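Pathways that feed electrons to the respiratory chain also had mostly negative values at 6 h. The 17 TCA cycle and pyruvate dehydrogenase genes other than the succinate dehydrogenase genes all had negative log2 fold changes at 6 h against control, with a median of -0.76, beside -0.05 over all genes. None passed with edgeR, 11 were lower at an unadjusted p under 0.05 (64.7%, against 7.89% of all genes), and 1 passed as lower with DESeq2 (5.88%, against 5.26%). Idh2, the mitochondrial isocitrate dehydrogenase that makes NADPH, had 44.3, 157, 90.7, 49.1 and 47.5 CPM in 6 h grafts, 114, 145, 127 and 197 CPM in 1 h grafts, and 201, 218, 139 and 163 CPM in control. A single 6 h graft reached the control range, and the log2 fold change at 6 h was -1.21 ± 0.37 (SE, adjusted p = 0.0602, edgeR). The 17 genes had a median of -0.61 at 1 h, with 3 lower at an unadjusted p under 0.05 (17.6%, against 2.45% of all genes).

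Of 19 fatty acid oxidation genes 3 were lower (15.8%, against 1.59% of all genes) and 0 higher (against 5.58%) at 6 h against control with edgeR, with a median log2 fold change of -0.64. Cpt2, which hands long-chain acyl groups to the matrix, fell to 58.9, 68.6, 47.2, 167 and 139 CPM in 6 h grafts, against 333, 269, 355 and 201 CPM in control (log2 fold change -1.59, adjusted p = 0.00934, edgeR), a call kept under all 17 alternatives. Hadh (-0.92, adjusted p = 0.029), a dehydrogenase of beta oxidation, and Etfdh (-1.15, adjusted p = 0.0492), which passes its electrons to ubiquinone, were called too. The call of Hadh was lost without any of graft 6 h replicates 1, 2, 3 and 5 or control replicates 1, 2 and 3 (adjusted p = 0.0534 to 0.0928), and that of Etfdh when any of the 9 libraries of the 2 groups but control replicate 4 was left out (0.0514 to 0.129), without graft 1 h replicate 2 and graft 6 h replicate 5 (0.0934), and without a filter (0.0521).

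Regulators of mitochondrial biogenesis were called as higher only, while the hypoxia list held calls in both directions. Of 11 tested regulators of mitochondrial biogenesis 2 were higher at 6 h against control, Pprc1 and Nfe2l2 (18.2%, against 5.58% of all genes), and none lower (edgeR). Their median log2 fold change was 0.22, with 5 of 11 negative. Of 14 genes of the hypoxia response of respiration, a list that includes Cox4i2, 2 were higher, Hif1a and Hmox1, and 1 lower, Pdk2, with a median of -0.36 and 8 of 14 negative, where 5.58% of all genes were higher and 1.59% lower. Hif1a, the oxygen-regulated subunit of hypoxia-inducible factor, had 713, 456, 823, 641 and 939.5 CPM in 6 h grafts, 77.8, 121, 127 and 99.4 CPM in 1 h grafts, and 52.0, 52.2, 66.6 and 100.5 CPM in control (log2 fold change 3.40 at 6 h against control, adjusted p = 2.57e-06, edgeR). Pprc1, a coactivator of NRF1 target genes, rose to 99.8, 90.2, 149, 58.5 and 43.0 CPM in 6 h grafts, against 14.9, 11.9, 12.0 and 23.2 CPM in control (2.50, adjusted p = 0.0058). Both calls were kept under all 17 alternatives, and that of Nfe2l2 (1.04, adjusted p = 0.0069, edgeR) was lost with library totals (0.0572). Of 14 genes for electron carriers and exchange 1 was called at 6 h, Etfdh, as lower (7.14%, against 1.59% of all genes). It is the same call as in the fatty acid oxidation list. Pdk2, of the hypoxia list, a kinase that switches off pyruvate dehydrogenase, was lower (-1.21, adjusted p = 0.0298, edgeR). That call was lost without any of graft 6 h replicates 1, 3 and 5 or control replicates 1 and 3 (0.0567 to 0.102). Of 11 genes for mitochondrial proteases and stress none passed at 6 h with edgeR, 2 were higher (18.2%, against 12.2% of all genes) and 1 lower (9.09%, against 7.89%) at an unadjusted p under 0.05, and DESeq2 passed 1 in each direction (9.09% each, against 9.5% higher and 5.26% lower).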
